A study of Mus musculus with 20 samples.

Results

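The genes described are 8 major urinary protein genes (Mup1, Mup2, Mup3, Mup10, Mup11, Mup14, Mup15 and Mup18) in the inguinal white adipose tissue (iWAT) of mice. They are 8 of the 36611 genes measured and 8 of the 41 Mup genes and pseudogenes among them. They were picked from these same libraries because their RNA was much lower on high-fat diet (HFD) than on low-fat diet (LFD), with no stated limit. Their diet values are therefore given as a description without a test. The choice did not use the comparison of genotypes within a diet. That comparison shares its libraries with the diet contrast, so it is not independent of the choice.

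Total RNA, depleted of ribosomal RNA and made into stranded libraries, was sequenced from the subcutaneous inguinal fat of 20 female C57BL/6 mice aged 6 months, 5 in each of 4 groups. All mice had eaten a purified diet for 15 weeks, with 10.5% fat (LFD) or 58% fat (HFD). The knockout mice, written Ad-Tmem120a-/-, carried Tmem120a alleles with exons 2 and 3 between loxP sites (fl/fl) and a Cre recombinase driven by the Adipoq promoter, which is active in mature adipocytes. Controls, labelled wild type, were Tmem120a fl/fl littermates without Cre. The groups are control LFD (replicates 1 to 5), Ad-Tmem120a-/- LFD (6 to 10), control HFD (11 to 15) and Ad-Tmem120a-/- HFD (17 to 21). The labels number the libraries and name no pooling of animals.

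Major urinary proteins are small secreted lipocalins that hold hydrophobic ligands in a barrel-shaped pocket. They are best known as liver products that pass through the blood into urine, where they carry and slowly release pheromones. In the liver their transcription is driven by growth hormone, acting through STAT5, and by glucocorticoid, thyroid and sex hormones, and their RNA is also found at lower levels in several glands and in fat. The genes lie side by side in 1 young cluster whose copies are close to identical, so short reads often match several of them.

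The totals of estimated counts ran from 54605101 to 92387737 per library. Tmem120a, the targeted gene, was listed at 85.4 ± 28.4 TPM (SD, n = 5) in control LFD and 41.5 ± 21.9 in Ad-Tmem120a-/- LFD, and at 119 ± 44.5 in control HFD and 51.6 ± 26.7 in Ad-Tmem120a-/- HFD. TPM is a level corrected for transcript length and for depth, so that levels of different genes can be set side by side. White adipocyte markers were abundant in every library, with summed levels of 12 genes between 15600 and 32500 TPM. In bulk tissue, fewer cells of a type and less RNA per cell cannot be told apart.

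All 8 genes lie on the minus strand of chromosome 4 of the mm9 assembly (NCBIM37), within a Mup cluster of 1842 kb at chr4:59969676-61811897. Mup10 lies at chr4:60591132-60595071, Mup14 at chr4:60961055-60965051, Mup18 at chr4:61331211-61335170 and Mup11 at chr4:60671338-60675283. Mup15 was annotated at chr4:60961073-61100775, a span that runs over Mup14, and its main transcript model, with 89.2% of the gene's TPM, starts in Mup15 and ends in Mup14. Mup3 lies at chr4:61744510-61748376, Mup1 at chr4:60510884-60514832 and Mup2 at chr4:60080259-60167161. The annotation of that build lists 42 Mup genes and pseudogenes, 21 of them protein-coding.

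The start of the coding sequence shows how alike the members are. Each line below is the coding part of exon 1 of 7 of the member's coding transcript, read 5′ to 3′ on the minus strand of NCBIM37, with bases that differ from Mup10 in a pairwise alignment in capitals. This exon encodes the signal peptide of the secreted protein. The stretches are chr4:60594865-60594960 for Mup10, chr4:60964826-60964921 for Mup14, chr4:61334961-61335059 for Mup18, chr4:60675074-60675172 for Mup11, chr4:61100569-61100664 for Mup15, chr4:60514626-60514721 for Mup1, chr4:60152563-60152658 for Mup2 and chr4:61748158-61748265 for Mup3.
Mup10: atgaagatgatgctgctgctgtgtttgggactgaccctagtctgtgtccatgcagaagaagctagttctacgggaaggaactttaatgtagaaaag
Mup14: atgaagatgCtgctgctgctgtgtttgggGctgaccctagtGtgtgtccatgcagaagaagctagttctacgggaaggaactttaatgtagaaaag
Mup18: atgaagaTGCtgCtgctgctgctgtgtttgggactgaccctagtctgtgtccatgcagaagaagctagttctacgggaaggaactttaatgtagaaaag
Mup11: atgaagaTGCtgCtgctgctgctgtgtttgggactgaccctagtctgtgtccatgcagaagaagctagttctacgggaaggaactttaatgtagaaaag
Mup15: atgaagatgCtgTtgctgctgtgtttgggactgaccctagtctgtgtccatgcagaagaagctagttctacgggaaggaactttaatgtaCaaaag
Mup1: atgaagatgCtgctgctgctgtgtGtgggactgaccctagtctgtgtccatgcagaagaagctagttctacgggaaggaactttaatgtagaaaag
Mup2: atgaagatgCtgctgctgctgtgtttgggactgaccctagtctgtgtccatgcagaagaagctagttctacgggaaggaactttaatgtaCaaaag
Mup3: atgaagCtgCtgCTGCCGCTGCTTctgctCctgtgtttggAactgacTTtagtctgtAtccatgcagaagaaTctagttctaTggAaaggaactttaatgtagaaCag

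Apart from Mup3, the first coding exons differ from Mup10 by 2 to 4 bases, and those of Mup11 and Mup18 are the same. Over the whole coding sequence the 21 pairs without Mup3 were 98.7 to 99.8% identical, differing at 1 to 7 bases. Mup11 and Mup18 differed at 1 base, as did Mup2 and Mup15. The Mup15 sequence compared is that of its main transcript model, which ends in Mup14. Mup3 was the divergent member, at 82.4 to 83.5% identity to the other 7. Of the 31-base words in a member's transcripts, the share found in no other Mup gene was 66.8% for Mup3, 26.1% for Mup1, 20% for Mup2, 19% for Mup10, 16.7% for Mup11, 10.6% for Mup14, 6.89% for Mup18 and 0% for Mup15. The split of reads between members other than Mup3 is therefore uncertain, and the sum over the 8 genes is given first.

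The summed Mup level was lower on HFD in both genotypes. In control LFD mice the 8 genes together made up 1506, 1980, 2923, 12525 and 2328 TPM in replicates 1 to 5. In control HFD mice they made up 165, 67.5, 65.1, 75.0 and 80.0 TPM. Every control library on LFD was above every control library on HFD, the lowest LFD value being 9.13 times the highest HFD value, and replicate 4 on LFD stood far above its group.

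In Ad-Tmem120a-/- LFD mice the sum was 2054, 2867, 1330, 1147 and 2750 TPM in replicates 6 to 10. In Ad-Tmem120a-/- HFD mice it was 412, 85.3, 115, 612 and 146 TPM in replicates 17 to 21. These groups did not overlap either, with the lowest LFD value 1.87 times the highest HFD value, and replicates 17 and 20 were the high HFD libraries.

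The means were 4253 ± 4653 TPM (SD, n = 5) on LFD and 90.5 ± 42.0 on HFD in control mice, a level 47.0-fold lower on HFD. Without control LFD replicate 4 the difference was 24.1-fold, and by medians it was 31.1-fold. The knockout means were 2029 ± 789 and 274 ± 229 TPM, which is 7.41-fold lower on HFD, or 14.1-fold by medians. On the log2 scale the ratio of HFD to LFD means was -5.55 in control and -2.89 in Ad-Tmem120a-/- mice, a difference of 2.67 that is given without a test since the choice of genes used this contrast. Without control LFD replicate 4 that difference was 1.70. The median gene shifted by 0.16 (log2 TPM) on HFD in control and by 0.10 in Ad-Tmem120a-/- mice. With TPM rescaled by TMM factors, which removes such a shift, the ratios were -5.80 and -2.97.

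**Figure D1:**
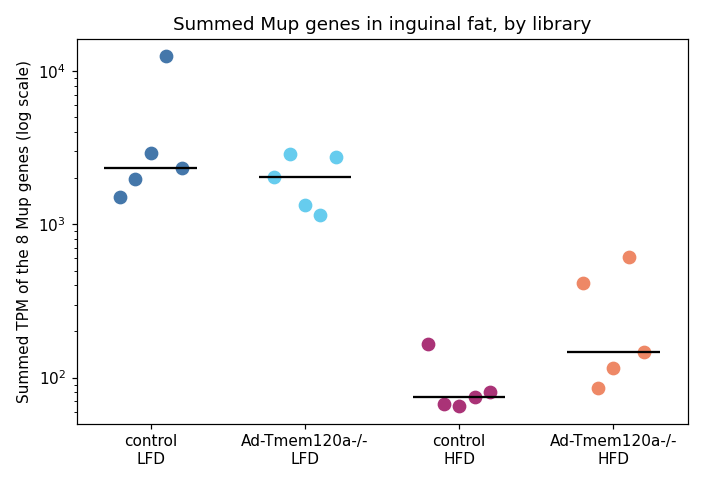
Summed TPM of the 8 Mup genes (log axis) in each of the 20 libraries, by group, with a line at each group's median. LFD libraries lie between 1147 and 12525 TPM and HFD libraries between 65.1 and 612 TPM, and the 2 highest HFD points are Ad-Tmem120a-/- libraries.

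Mup10 carried the largest share of the sum. Its level in control LFD libraries was 567, 910, 1259, 6566 and 988 TPM, and in control HFD libraries 76.2, 21.2, 29.1, 24.3 and 26.9 TPM. In Ad-Tmem120a-/- libraries it was 1017, 1407, 537, 575 and 978 TPM on LFD and 167, 47.8, 30.6, 308 and 64.7 TPM on HFD. The diets did not overlap in either genotype. Among all genes ordered by TPM, Mup10 ranked between 15 and 112 in the LFD libraries and between 255 and 4180 in the HFD libraries. Its mean was 57.9-fold lower on HFD in control mice (2058 ± 2532 against 35.5 ± 22.9 TPM) and 7.30-fold lower in Ad-Tmem120a-/- mice (903 ± 358 against 124 ± 116 TPM).

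Mup14, second in the sum, showed the same order of groups. Control libraries held 553, 525, 901, 2431 and 635 TPM of Mup14 on LFD and 25.4, 20.9, 12.8, 19.8 and 29.9 TPM on HFD. Ad-Tmem120a-/- libraries held 472, 640, 441, 153 and 1057 TPM on LFD and 99, 10.5, 42.8, 110 and 26.7 TPM on HFD. Neither genotype overlapped between diets, and the mean was 46.4-fold lower on HFD in control and 9.56-fold lower in Ad-Tmem120a-/- mice. Almost all of this level, 99.3%, sat in 1 transcript model that begins near the end of the exon shown above and not at the annotated start of the gene.

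Mup18 reached 201, 312, 355, 1322 and 317 TPM in control LFD and 20.6, 8.36, 11.8, 3.76 and 17.1 TPM in control HFD libraries. Knockout libraries held Mup18 at 213, 295, 176, 291 and 355 TPM on LFD and at 52.2, 0, 10, 110 and 22.1 TPM on HFD, where replicate 18 was listed at 0. Its mean was 40.7-fold lower on HFD in control and 6.86-fold lower in Ad-Tmem120a-/- mice, with no overlap of the diets. Mup11, which differs from Mup18 at 1 coding base, was at 72.2, 144, 259, 1664 and 231 TPM in control LFD and 25.4, 5.83, 5.55, 15.1 and 0 TPM in control HFD libraries. In Ad-Tmem120a-/- libraries Mup11 was at 229, 406, 120, 82.1 and 220 TPM on LFD and 55.8, 14.5, 12.7, 44.6 and 13.5 TPM on HFD. Mup11 was 45.7-fold lower on HFD in control and 7.49-fold lower in Ad-Tmem120a-/- mice, again without overlap.

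Mup15 was lower in level, at 104, 78.8, 131, 481 and 142 TPM in control LFD and 10.9, 7.64, 1.89, 8.84 and 0 TPM in control HFD libraries. Knockout libraries held 108, 101, 46.0, 37.8 and 131 TPM of it on LFD and 32.0, 2.61, 15.0, 33.0 and 16.8 TPM on HFD. The diets did not overlap, and the mean was 32.0-fold lower on HFD in control and 4.27-fold lower in Ad-Tmem120a-/- mice. Because none of its 31-base words is its own, the level of Mup15 rests wholly on how the reads were shared out.

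Mup3, the divergent member and the one whose reads are most its own, differed least between diets. It was listed at 7.69, 5.93, 11.6, 25.8 and 7.10 TPM in control LFD and 6.08, 3.63, 3.36, 3.10 and 5.14 TPM in control HFD libraries. The knockouts had Mup3 at 9.92, 11.3, 6.14, 7.24 and 6.98 TPM on LFD and 5.11, 9.90, 4.15, 4.76 and 1.68 TPM on HFD. The diets overlapped in both genotypes. The mean was 2.73-fold lower on HFD in control (11.6 ± 8.21 against 4.26 ± 1.29 TPM) and 1.62-fold lower in Ad-Tmem120a-/- mice (8.32 ± 2.19 against 5.12 ± 2.99 TPM).

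Mup1 and Mup2 were close to the limit of detection on HFD. Mup2 was at 1.01, 3.35, 5.78, 29.1 and 6.30 TPM in control LFD libraries, and its highest control HFD value was 0.588 TPM, with 3 of 5 libraries listed at 0. The knockouts had Mup2 at 4.49, 6.34, 1.69, 0 and 0 TPM on LFD, and on HFD its highest value was 1.2 TPM with 3 of 5 libraries at 0. Mup1 was at 0.236, 0.924, 0.797, 7.49 and 0.249 TPM in control LFD libraries and at 0.0889, 0, 0, 0 and 0.997 TPM in control HFD libraries. Knockout libraries held Mup1 at 1.60, 0.0758, 1.34, 0 and 0.809 TPM on LFD, and on HFD 1 of 5 libraries held any, at 0.923 TPM. Mup1 overlapped between diets in both genotypes, and Mup2 in Ad-Tmem120a-/- mice. Most of these small levels sat in partial or non-coding models, 96.4% of Mup1 in a transcript covering part of the gene and 96.8% of Mup2 in a processed transcript.

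Counted together, 6 of the 8 genes had no overlap between diets in control mice, Mup1 and Mup3 being the others, and 5 of 8 had none in Ad-Tmem120a-/- mice. Across all genes tested, 1.46% were lower on HFD without overlap in control and 2.94% in Ad-Tmem120a-/- mice, and nothing is read from the members' count since this contrast chose them. A mean at least 10-fold lower on HFD was seen for 0.673% of genes in control and 0.535% in Ad-Tmem120a-/- mice. In the edgeR fit across all genes, the log2 fold change on HFD in control mice was -6.17 (SE 0.801) for Mup10, -5.81 (SE 0.539) for Mup14 and -1.74 (SE 0.433) for Mup3, given as sizes only. All 8 genes passed the filter of a mean of 0.5 TPM in that fit, and 7 did in the fit of Ad-Tmem120a-/- mice, where Mup1 was below it. The fit of those mice gave -3.01 (SE 0.582) for Mup10 and -0.83 (SE 0.456) for Mup3. The log2 ratio of means was nearer 0 in Ad-Tmem120a-/- mice than in control mice for all 8 genes, by 0.75 (Mup3) to 2.99 (Mup10). Without control LFD replicate 4 this held for 7 genes, by 0.22 (Mup3) to 2.19 (Mup15), and turned for Mup1 (-0.71). These genes share reads, and control LFD replicate 4 was the highest library of its group for each of them, so they are not 8 separate observations. Leaving out each library in turn for single members was added after the data were seen. Without that replicate 4 the control fold was 26.2 for Mup10, 30.0 for Mup14, 24 for Mup18, 17 for Mup11 and 19.5 for Mup15. Without control HFD replicate 11 it was 71.6 for Mup11. Without Ad-Tmem120a-/- HFD replicate 20 the knockout fold was 11.6 for Mup10 and 12.6 for Mup18. For Mup1 and Mup2, with few counts on HFD, a single library decided the ratio, and no fold is given.

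**Figure D2:**
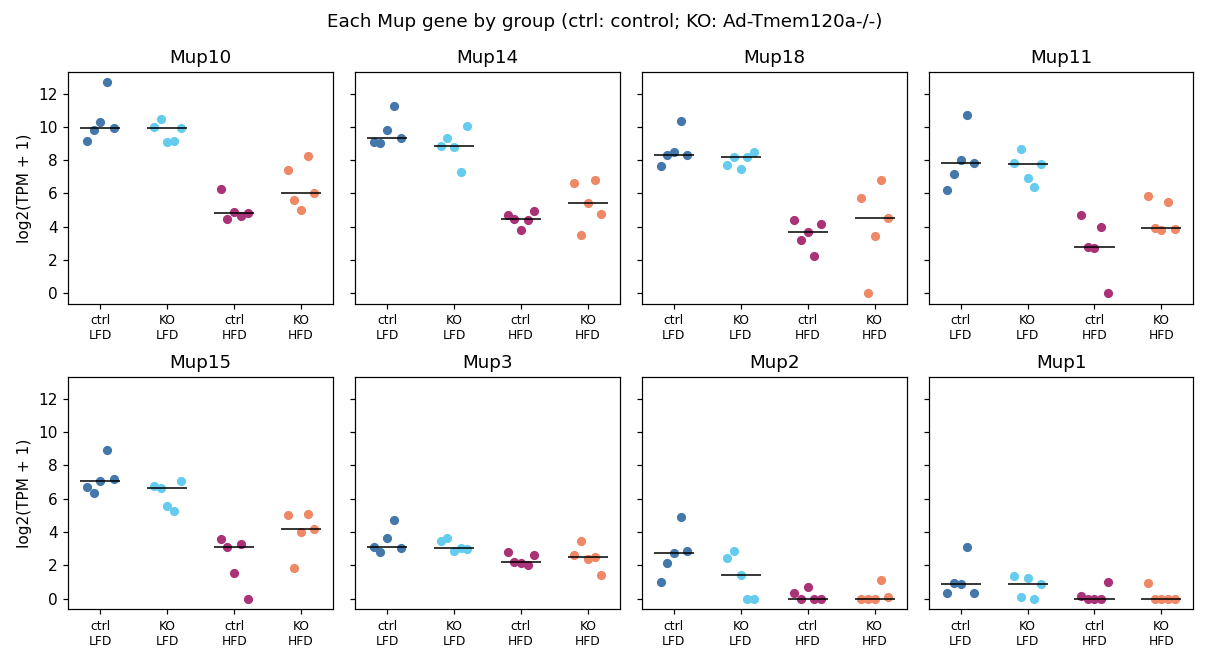
TPM of each of the 8 Mup genes in the 20 libraries, by group, as log2(TPM + 1), with a line at each group's median. Mup10, Mup14, Mup18, Mup11 and Mup15 separate the diets in both genotypes, Mup3 overlaps between them, and Mup1 and Mup2 reach 0 in several libraries.

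The make-up of the sum was similar across groups for the major genes. Mup10 made up 44.3 ± 5.43% (SD, n = 5) in control LFD, 44.9 ± 6.59% in Ad-Tmem120a-/- LFD, 37.7 ± 7.16% in control HFD and 43.6 ± 11.2% in Ad-Tmem120a-/- HFD libraries. Mup14 made up 28.2 ± 6.34%, 26.0 ± 9.86%, 26.0 ± 8.73% and 21.9 ± 9.44% in the same order. For both genes the group means lay closer together than the libraries of a group did. Mup3 made up 0.343 ± 0.115% in control LFD and 4.96 ± 1.08% in control HFD libraries. Some libraries with a member listed at 0 held larger shares of others. In control HFD replicate 15, with Mup11 and Mup15 at 0, Mup14 made up 37.3% and Mup18 21.4%. In Ad-Tmem120a-/- HFD replicate 18, with Mup18 at 0, Mup10 made up 56%.

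**Figure D3:**
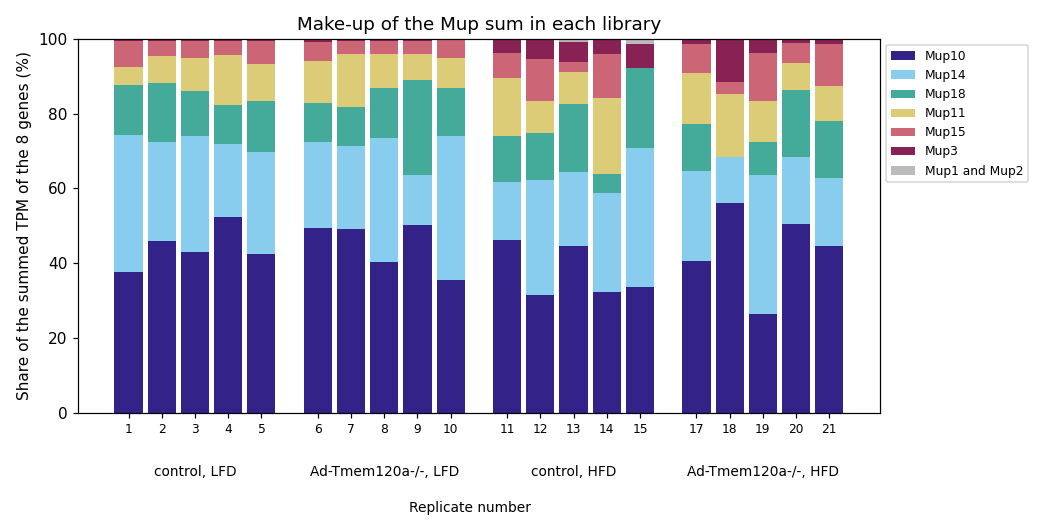
Share of the summed Mup TPM (percent) taken by each member in each of the 20 libraries, grouped by diet and genotype. Mup10 and Mup14 make up most of every bar, and Mup3 is visible in HFD libraries, where its mean share is 4.96% in control and 3.68% in Ad-Tmem120a-/- mice.

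The members varied together over the 20 libraries, which share groups and the diets that chose the genes. Near copies that share reads are not independent here. Pearson's r of log2(TPM + 1) between Mup10 and Mup14 was 0.957, and after group means were subtracted it was 0.722. Between Mup3 and Mup18 it was 0.571, and after group means were subtracted it was -0.000434. With the other members Mup3 then reached at most 0.538 (Mup10). These values describe the libraries and carry no test.

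On HFD, the Mup sum averaged 3.03-fold higher in Ad-Tmem120a-/- than in control mice, 1.94-fold by medians, and the groups overlapped, as they did for each of the 8 members. Across all genes tested 0.69% did not overlap between genotypes on HFD and 1.4% on LFD. Replicates 17 and 20 of Ad-Tmem120a-/- were above all control libraries, while replicates 18, 19 and 21 lay within the control range of 65.1 to 165 TPM. Of the 6 members that passed the filter of a mean of 0.5 TPM, 0 were called at an adjusted p of 0.1 by edgeR's quasi-likelihood test with Benjamini-Hochberg adjustment over all genes, where 0.00657% of genes were called. At an unadjusted p under 0.05 there were 2, Mup10 and Mup14, beside 709 of all 15228 genes tested. Mup10 had a log2 fold change of 1.82 (SE 0.583, edgeR adjusted p = 0.7989) and Mup14 of 1.41 (SE 0.505, edgeR adjusted p = 0.9664). Mup15 (1.73), Mup18 (1.67), Mup11 (1.41) and Mup3 (0.28) had positive estimates with an edgeR adjusted p of 0.9993 each. Without replicate 20 the sum was 2.09-fold higher in Ad-Tmem120a-/- mice, and without control replicate 11 it was 3.81-fold higher.

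DESeq2 and limma on log2(TPM + 1) also called 0 of these members on HFD, with 2 (Mup10 and Mup14) and 3 (Mup10, Mup11 and Mup15) at an unadjusted p under 0.05. For Mup1 and Mup2, below the filter, permuting the genotype labels in all possible ways gave an exact two-sided p = 0.72222 and 0.88095 for the mean log2(TPM + 1), where 5 against 5 libraries allow a smallest p of 0.00794. The summed level of 11 skeletal muscle markers ran from 8.14 to 58.3 TPM in control HFD and from 45.1 to 1620 TPM in Ad-Tmem120a-/- HFD libraries. These ranges overlapped. All 11 markers were at an unadjusted p under 0.05, beside 709 of all 15228 genes tested, with 0 called by edgeR and 9 by DESeq2. Whether this RNA came from muscle tissue or from fat cells was not tested, nor was its part in the Mup difference.

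On LFD, the Mup sum was 2.10-fold lower in Ad-Tmem120a-/- than in control mice by means and 1.13-fold lower by medians, with overlapping groups for the sum and for each member. Without control replicate 4 the means differed by 1.08-fold. All 8 members passed the filter and 0 were called by edgeR, where 0.00636% of genes were called. Mup15 was the 1 member at an unadjusted p under 0.05, beside 803 of all 15717 genes tested. DESeq2 called 0 with 2 at that level (Mup15 and Mup18), and limma on log2(TPM + 1) called 0 with 0. The log2 fold changes ran from -2.04 (Mup2) to -0.63 (Mup3), with -1.35 (SE 0.634, edgeR adjusted p = 0.9293) for Mup10. Without control replicate 4 the estimates of Mup1 and Mup11 turned positive, to 0.51 and 0.14. No member was thus shown to differ between genotypes on either diet, which does not show that the genotypes were alike.

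Among the 33 other Mup genes and pseudogenes, 13 were protein-coding and 20 were pseudogenes, and 0 of the pseudogenes reached 5 estimated counts. The 8 members held between 87.0 and 98.6% of the family's TPM in each library. The others summed to 106 ± 77.3 TPM in control LFD, 52.4 ± 20.9 in Ad-Tmem120a-/- LFD, 10.3 ± 4.84 in control HFD and 15.3 ± 10.6 in Ad-Tmem120a-/- HFD libraries. In control mice 5 of the 7 tested were lower on HFD, where 4.90% of all genes were called lower, and 4 were without control LFD replicate 4 and 3 without replicate 5. DESeq2 called 7 and limma 6. The filter averages both diets. Mup8 (1.02 TPM on LFD against 0 on HFD), Mup17 (3.42 against 0.243) and Mup12 (1.09 against 0.0784) passed it through their LFD level. Such genes could hardly be called higher on HFD, so nothing is read from these counts. Mup19 was at 48.0 ± 28.2 TPM on LFD and 7.04 ± 2.97 on HFD (log2 fold change -3.03, edgeR adjusted p = 0.003868). Mup16 (-5.90, edgeR adjusted p = 0.02013), Mup7 (-3.65, 0.05559) and Mup17 (-4.06, 0.03987) fell as well, and Mup8, called lower, was listed at 0 in every control HFD library. In Ad-Tmem120a-/- mice 1 of 6, Mup19, was lower on HFD (24.5 ± 6.99 against 8.49 ± 2.54 TPM, log2 fold change -1.64, edgeR adjusted p = 0.004942), where 4.85% of all genes were. Between genotypes 0 of 5 were called by edgeR on HFD and 0 of 7 on LFD, with 1 and 2 at an unadjusted p under 0.05 and 0 by DESeq2 and by limma. These genes share reads with the members and are no independent evidence.

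Genes that neighbour the cluster, unrelated to Mup, were counted in the same way. Of 30 protein-coding genes within 1 Mb of the outermost Mup genes, 23 were tested and 0 were called by edgeR in any of the 4 comparisons, with 3 at an unadjusted p under 0.05 in each diet comparison and 0 in each genotype comparison. DESeq2 called 1 in control and 2 in Ad-Tmem120a-/- mice by diet, and limma 3 in each. Their median log2 fold change on HFD was 0.03 in control and -0.01 in Ad-Tmem120a-/- mice, beside -0.04 and 0.00 over all genes. By diet, 3166 of all 15311 genes tested in control and 3115 of 15705 in Ad-Tmem120a-/- mice had an unadjusted edgeR p under 0.05.

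Growth hormone drives Mup transcription in liver through JAK2 and STAT5, and Socs2 is a known STAT5 target that feeds back on the receptor. Of 11 genes of this pathway tested, 2 were higher and 1 lower on HFD in control mice, where 9.32% of all genes were called. Socs2 was at 13.3, 23.1, 46.3, 67.7 and 24 TPM in control LFD libraries, with its highest value in replicate 4, the library highest in Mup. In the other groups its highest value was in replicates 8 (32.1 TPM), 13 (21.3) and 21 (23.6), which were not the highest in Mup, and replicate 13 had the lowest Mup sum of all. Its mean fell from 34.9 ± 22.0 to 12.8 ± 4.88 TPM on HFD (log2 fold change -1.57, edgeR adjusted p = 0.05868). Igfbp3, a carrier of insulin-like growth factor, rose by 0.85 (edgeR adjusted p = 0.07703), and Igfals, which stabilises that complex in blood, rose by 1.20 (0.05443), both on the log2 scale. In Ad-Tmem120a-/- mice 1 of 11 was called, where 9.40% of all genes were, and it was Socs2 (24.2 ± 7.59 against 17.5 ± 6.04 TPM, log2 fold change -0.82, edgeR adjusted p = 0.03351). In control mice 0 of the 11 were called without LFD replicate 3, 1 without LFD replicate 2 or HFD replicates 11, 12, 14 or 15, and 2 without LFD replicates 4 or 5 or HFD replicate 13. The part of this pathway in the Mup values was not tested. Between genotypes 0 of 11 were called on either diet by edgeR, DESeq2 or limma, and 0 had an unadjusted p under 0.05.

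Of 14 hormone receptors and transcription factors of the liver Mup programme that were tested, 4 were lower and 0 higher on HFD in control mice. Over all genes, 4.90% were called lower there and 9.32% were called in all. Hsd11b1, which regenerates active glucocorticoid inside cells, fell from 60.1 ± 21.2 to 25.4 ± 2.78 TPM in control (log2 fold change -1.49, edgeR adjusted p = 0.003045) and from 57.1 ± 34.8 to 20.3 ± 7.20 TPM in Ad-Tmem120a-/- mice (-1.68, 0.01196), without overlap. Esr1, the oestrogen receptor, fell in both genotypes (log2 fold changes -0.97 and -0.79, edgeR adjusted p = 0.02902 and 0.02859). The fatty acid receptor Ppara (-1.28, edgeR adjusted p = 0.04276) and the coactivator Ppargc1a (-0.76, 0.01512) fell in control mice. Whether these effects differ between genotypes was not tested. Between genotypes 0 of 14 were called by any of the 3 tools, with 0 at an unadjusted p under 0.05.

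Of 8 lipocalins outside the Mup family that were tested, 1 was called by diet in each genotype, beside 9.32% and 9.40% of all genes. Lcn2, an iron-siderophore carrier, was lower on HFD in control mice (log2 fold change -0.75, edgeR adjusted p = 0.07162), a call lost under 9 of 18 alternatives, including those without control LFD replicates 2, 3, 4 or 5 or HFD replicates 11, 12 or 15. Apod was higher on HFD in Ad-Tmem120a-/- mice (0.57, edgeR adjusted p = 0.05965), a call lost under 11 of 18, including those without replicates 6, 8, 10, 17, 19 or 20. By diet DESeq2 called 3 of 8 in control and 2 of 8 in Ad-Tmem120a-/- mice, and limma on log2(TPM + 1) 1 and 0. Between genotypes edgeR called 0 of 7 on HFD (1 at an unadjusted p under 0.05, 1 by DESeq2, 0 by limma) and 0 of 9 on LFD (2, 0 and 0).

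Hepatocyte markers were summed in each library. The 16 markers came to 23.2 to 89.4 TPM in control LFD, 39.6 to 115 in Ad-Tmem120a-/- LFD, 31.1 to 97.2 in control HFD and 31.5 to 68.2 in Ad-Tmem120a-/- HFD libraries, ranges that overlapped. Of the 16, 6 reached the filter. Alb (mean of 31.6 TPM over the 20 libraries) and Fgg (11.5 TPM) were the largest parts of these sums. Other markers such as Apoa1 (0.26 TPM), Ahsg (0.186) and Ttr (0.186) were close to 0. Control LFD replicate 4, with the highest Mup sum, had the lowest hepatocyte sum of all 20 libraries. In each other group the library highest in hepatocyte markers was also the highest in Mup. These were Ad-Tmem120a-/- LFD replicate 7 (115 TPM of hepatocyte markers), control HFD replicate 11 (97.2 TPM) and Ad-Tmem120a-/- HFD replicate 20 (68.2 TPM). Serpina1a was higher on HFD in control mice (0.805 against 3.56 TPM, log2 fold change 1.93, edgeR adjusted p = 0.007357), and Alb was lower on HFD in Ad-Tmem120a-/- mice (34.0 against 21.2 TPM, -0.82, 0.03376). The part of liver RNA in the Mup values was not tested.

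The brown and beige fat markers were also summed in each library. Their level was 79.3, 137, 416, 672 and 444 TPM in control LFD, where replicate 4 was the highest of all 20 libraries, and 44.9 to 198 TPM in control HFD. In Ad-Tmem120a-/- HFD libraries it was 559 TPM in replicate 17 and 152 TPM in replicate 20, the high Mup libraries, and 59.7 to 143 TPM in the others. In Ad-Tmem120a-/- LFD libraries it was 170, 395, 192, 149 and 56.4 TPM, where replicate 10, the lowest, had the second highest Mup sum of its group. Of the 6 markers, Cidea (log2 fold change -2.58, edgeR adjusted p = 0.0216), Elovl3 (-3.72, 0.0814) and Ppargc1a, which is also in the liver list, were lower on HFD in control mice, and 0 were called in Ad-Tmem120a-/- mice. Over all genes, 4.90% were called lower on HFD in control mice. Skeletal muscle markers, 9 of 11 lower on HFD in control mice, summed to 3720 TPM in control LFD replicate 5 and 138 TPM in replicate 4, and leaving out 1 library at a time left between 0 and 11 called, with 0 without LFD replicate 5 or HFD replicates 11, 13, 14 or 15 and 5 without LFD replicate 3. For the brown and beige fat markers it left between 2, as without LFD replicate 4, and 5, without LFD replicate 1. The part of either set of markers in the Mup values was not tested.

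**Figure D4:**
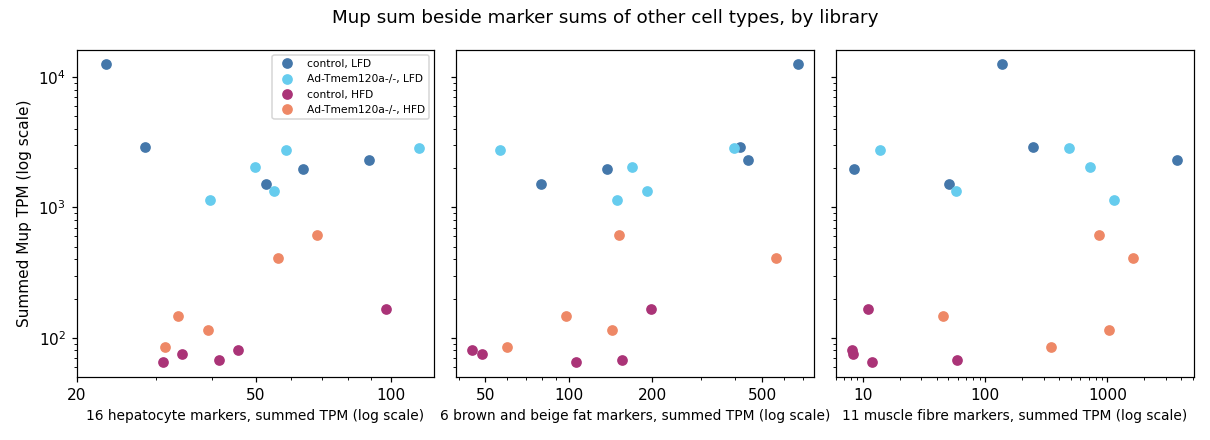
Summed Mup TPM (log axis) against the summed TPM of hepatocyte, brown and beige fat and skeletal muscle fibre markers (log axes), 1 point per library, coloured by group. The library with the highest Mup sum, 12525 TPM, has the lowest hepatocyte sum, 23.2 TPM, and the highest brown and beige fat sum, 672 TPM. In each other group the library highest in this hepatocyte sum, whose largest parts are Alb and Fgg, is also the highest in Mup.

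The other marker lists are given beside 9.32% of all genes called by diet in control and 9.40% in Ad-Tmem120a-/- mice. On HFD in control mice, Lep and Plin4 of 12 white adipocyte markers, 4 of 8 macrophage markers (Cd68, Itgax, Trem2 and Mmp12) and 2 of 6 endothelial markers (Cdh5 and Tie1) were higher, while 3 of 11 mammary epithelial markers (Csn1s1, Elf5 and Epcam) and 2 of 8 stromal markers (Pdgfra and Col1a1) were lower. Csn1s1 averaged 0.519 TPM over the 20 libraries. Its log2 fold change in control mice ran from -8.91 to -6.72 leaving out 1 library at a time. It passed the filter through its LFD level and could hardly be called higher on HFD, so nothing is read from its call. In Ad-Tmem120a-/- mice, Lep, Pparg, Pi16 and Cd34 were higher and Glycam1, Col1a1 and Cd3e, 1 of 10 lymphocyte markers, were lower. The control count fell to 0 without HFD replicate 12 for the mammary list and without LFD replicate 3 or HFD replicates 12 or 13 for the endothelial list, which had 1 call without LFD replicates 2 or 5 or HFD replicate 15. The white adipocyte list had 1 without LFD replicate 2 in control mice and without replicates 6, 7, 9, 19 or 21 in knockouts. The lymphocyte count in knockouts was 0 without replicates 6, 9, 10, 17, 18, 19 or 21 and 3 without replicate 20. Mammary sums ran from 397 to 833 TPM in control LFD and from 314 to 683 TPM in control HFD libraries. In the genotype comparisons edgeR called 0 genes of any marker list. On HFD DESeq2 called 9 of 11 muscle and 1 of 8 macrophage markers and limma 0, and on LFD both called 0. Leaving out 1 library at a time on HFD, edgeR called up to 7 muscle markers and up to 1 macrophage marker. At an unadjusted p under 0.05 on HFD were all 11 muscle, 3 of 10 mammary and 3 of 8 macrophage markers. At that level were also 2 of 6 hepatocyte, 2 of 6 brown and beige fat and 1 of 8 stromal markers.

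Outside the Mup family, the genes most alike the Mup sum over the 20 libraries, by Pearson's r of log2(TPM + 1) among 15560 genes, were Slc43a1 (0.942), Acaca (0.932), Thrsp (0.928), Slc1a3 (0.919), Gpd2 (0.918), Brp44l (0.891), Acacb (0.890), Elovl6 (0.889), Cyp2e1 (0.884) and Fam13a (0.861). The libraries share groups and diets, so these values describe the pattern over groups and carry no test. Slc43a1, an amino acid transporter, was at 13.4 and 13.6 TPM in control and Ad-Tmem120a-/- mice on LFD and at 4.93 and 6.83 TPM on HFD. Acaca, acetyl-CoA carboxylase, was at 365, 428, 95.4 and 118 TPM in the same order. Thrsp, a thyroid hormone responsive gene of lipogenic tissue, was at 284, 302, 47.7 and 69.3 TPM. After group means were subtracted, other genes came first, namely R3hdml (0.839), Gm16694 (0.838), Igkv6-32 (0.837), C3 (0.816) and Echdc1 (0.797), and 0 of their top 10 were among the 10 named above.

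**Figure D5:**
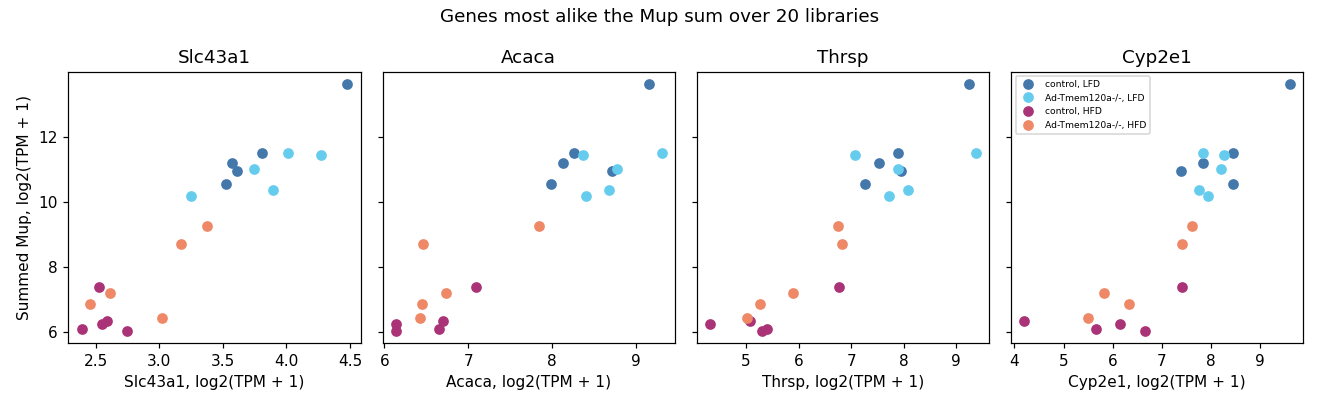
Summed Mup level against Slc43a1, Acaca, Thrsp and Cyp2e1, all as log2(TPM + 1), 1 point per library, coloured by group. LFD libraries lie mostly toward the upper right and HFD libraries toward the lower left, with the diets overlapping along the Slc43a1 and Cyp2e1 axes, and control LFD replicate 4 is the uppermost point.

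The sequence before the start of the genes was read because the members went together over the 20 libraries. RefSeq promoters on GRCm38.p6, from 250 bases before to 50 bases after the annotated start, matched 7 of the 8 members, all but Mup1. The 250 bases before the start are shown for Mup10, the most abundant member, at chr4:60582156-60582405, and for Mup3, the member that differed least between diets, at chr4:62087318-62087567, both on the minus strand and read 5′ to 3′. Capitals mark TATATAAGG and TGTTCT.
Mup10: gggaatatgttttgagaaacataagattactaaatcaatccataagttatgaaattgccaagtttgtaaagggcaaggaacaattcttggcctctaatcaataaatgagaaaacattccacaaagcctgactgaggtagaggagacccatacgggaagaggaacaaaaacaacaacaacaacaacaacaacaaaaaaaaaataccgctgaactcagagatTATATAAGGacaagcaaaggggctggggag
Mup3: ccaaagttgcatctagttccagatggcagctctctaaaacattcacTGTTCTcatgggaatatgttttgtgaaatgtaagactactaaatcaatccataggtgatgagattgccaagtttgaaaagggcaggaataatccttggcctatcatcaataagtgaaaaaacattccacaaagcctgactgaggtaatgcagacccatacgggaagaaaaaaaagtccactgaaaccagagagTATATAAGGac

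Against the promoter of Mup10, identity was 94.5% for Mup11, 94.0% for Mup2, 93.6% for Mup15, 90.9% for Mup18, 89.9% for Mup14 and 76.2% for Mup3. The letters TATATAAGG, chosen after these promoters were read, were in all 7 and in 0.307% of 32851 promoters, searched on both strands. They began 30 bases before the annotated start in Mup10, 28 in Mup18, 27 in Mup2, 25 in Mup15 and 11 in Mup3. In Mup11 they began 2 bases before the start and ran across it, and in Mup14 they began 12 bases after it. TGTTCT, letters of glucocorticoid receptor sites, was in 1 of 7, Mup3, beginning 204 bases before the start, and in 19% of promoters. The Mup10 window begins at gggaatatg, letters that in Mup3 follow shortly after TGTTCT. The matching place in Mup10 therefore lies outside its window and was not read. TTCNNNGAA, letters of STAT sites, was in 0 of 7 and in 8.30% of promoters, and TATAAA was in 0 of 7 and 13.6%. A match is a description of letters, and these windows say nothing about sites farther away.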

How the data were processed

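The deposited tables hold, for each of 20 iWAT libraries, Salmon estimated counts and TPM for 96533 transcripts. According to the study's methods, paired reads were aligned to mm9 with STAR and quantified with Salmon against Ensembl release transcripts of NCBIM37, and the submitters' processing notes give STAR 2.5.3 and Salmon 0.13.1. The methods also name a filter of the STAR alignments for proper pairs with a unique position and for blacklisted regions. Whether Salmon quantified the filtered or all reads is not given in the sources used here, and a filter of that kind can lower the values of near-identical genes. The authors' estimated counts and TPM were summed per gene through the annotation (94334 transcripts matched, 36611 genes). Unmatched transcripts held 0.377 to 0.581% of counts. Summed counts were rounded and tested with edgeR 4.0.16 in R 4.3.3 (TMM, quasi-likelihood, genes averaging 0.5 TPM or more in the 10 libraries, Benjamini-Hochberg, call at an adjusted p under 0.1). DESeq2 1.42.0 and limma 3.58.1 on log2(TPM + 1) or log2(TPM + 0.1) were alternatives, with others given in the closing section. Scripts were tested on simulated data. The Mup sum is the sum of TPM over the 8 genes. Genes under the filter had an exact permutation test (252 splits). The p-values weigh a difference between groups against the spread between these libraries.

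The members and the gene lists (growth hormone and STAT5 signalling, liver Mup programme, lipocalins, cluster neighbours, other Mup genes and 9 cell type marker lists) were chosen with earlier results of these data known. Genes named beyond the members were other Mup genes with a mean of 0.5 TPM in a group, called list genes (the 6 with the largest change per list and comparison), Tmem120a, and the 10 genes most alike the sum over libraries with the 5 most alike within groups (ranked over genes outside the Mup family). A result of the liver Mup programme list is not reported here.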

Additional observations from a re-analysis of the deposited data

Results flagged for a closer look

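Values were compared within each group of 5 libraries. In 14 of 36 groups of values the highest library stood apart from the rest. Its gap to the next library, over the whole range, was above 0.71. About 1 in 20 groups would have such a gap if values were normally distributed. The TPM compared were not put on a log scale, and some groups of Mup1 and Mup2 hold few detected values. That rate therefore does not apply here, and nothing is read from the count of 14. The members share reads, so the 14 are not separate events.

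Control LFD replicate 4 stood apart for every member and for the sum. It held 6566 TPM of Mup10 (next highest 1259), 2431 of Mup14 (901), 1664 of Mup11 (259), 1322 of Mup18 (355), 481 of Mup15 (142), 29.1 of Mup2 (6.30), 25.8 of Mup3 (11.6) and 7.49 of Mup1 (0.924). Its sum of 12525 TPM compares with 2923 in the next library. Mup3, with most of its reads its own, also stood apart there, by a gap of 0.717 of the range.

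Control HFD replicate 11 stood apart for Mup10, at 76.2 TPM against 29.1, and for the sum, at 165 TPM against 80.0. The low members gave the others: Mup1 at 0.997 TPM in control HFD replicate 15 and at 0.923 TPM in Ad-Tmem120a-/- HFD replicate 17, and Mup2 at 1.2 TPM in Ad-Tmem120a-/- HFD replicate 20, each in a group with 3 or 4 libraries listed at 0.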

How the results depend on the processing

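No paired analysis was possible because the replicate numbers of the 4 groups do not overlap. Without control LFD replicate 4 the log2 ratio of the Mup sum moved to -4.59 for diet in control mice and to -0.11 for genotype on LFD. Leaving out 1 library at a time gave -5.89 to -4.59 and -1.28 to -0.11 for these, -3.42 to -2.66 for diet in Ad-Tmem120a-/- mice and 1.07 to 1.93 for genotype on HFD. Medians, depth-scaled counts without length correction, TMM-rescaled TPM and all annotated Mup genes kept the direction of all 4 ratios, moving each by less than the spread between libraries. The number of members called between genotypes was 0 on both diets under every alternative. Single estimates turned sign for Mup3 on HFD without Ad-Tmem120a-/- replicate 18 (-0.11), Mup18 on HFD with limma on log2(TPM + 0.1) (-0.020), and Mup1 (0.51) and Mup11 (0.14) on LFD without control replicate 4. Leaving out 1 library at a time, they ran from -0.11 to 0.52 for Mup3 on HFD, and from -1.60 to 0.51 for Mup1 and -1.65 to 0.14 for Mup11 on LFD. The cause was not tested. Over the alternatives that leave out no library, adjusted p ran from 0.2689 to 1 on HFD and from 0.5314 to 0.9662 on LFD.

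Genes called in all numbered 1 between genotypes on HFD, 26 without the filter, 100 with DESeq2, 106 with DESeq2 and length offsets (added after the data were seen), 3 and 4 with limma at pseudocounts of 1 and 0.1, 5 with length offsets, 3 with all libraries in 1 fit, and 1 to 58 leaving out 1 library. On LFD they numbered 1, with 17 by DESeq2, 18 with offsets, 2 by limma at either pseudocount, 2 in 1 fit and 1 to 2 leaving out 1 library. By diet they numbered 1427 in control (2205 by DESeq2, 2148 by limma at 0.1, 780 to 1845 leaving out 1 library) and 1476 in Ad-Tmem120a-/- mice (2247 by DESeq2, 753 to 1355). On the TPM scale 83.7% of limma's diet calls in control mice were higher, against 47.4% of edgeR's, and 65.8% against 48.4% in Ad-Tmem120a-/- mice. The diet calls of Hsd11b1 and Esr1 held under all 18 alternatives in each genotype, and those of Socs2 under 13 of 18. Ranked by Spearman's rho, 9 of the 10 genes most alike the Mup sum were the same. Depth limits Mup1 and Mup2, which were at 0 in several libraries.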
